A study of Mus musculus with 6 samples.

Results

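The mitochondrial genome of the mouse liver was examined through the 37 genes that the count table placed on chrM, chosen by that chromosome label alone, of 55385 genes in all. They were 13 protein-coding genes, 2 rRNA genes and 22 tRNA genes, and the identifier, start and end of all 37 were equal to those of GENCODE release M21 (mm10). The data were poly(A) RNA-seq libraries of whole liver from 6 male mice, of which 3 had undergone vertical sleeve gastrectomy (VSG, which takes away most of the stomach) and 3 the sham surgery. All 6 mice entered the study at 6 to 8 weeks of age, received a high-fat diet (HFD) for 10 weeks before the operation and stayed on it for 12 weeks afterwards. All were wild-type C57BL/6 mice per the study's methods, and each library came from 1 mouse. The comparison asked how the operation changed liver RNA under continued HFD.

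The mitochondrial genome is transcribed from both strands as long precursors. Most of its mRNAs and its rRNAs are released where tRNAs lying between them are cut out, so the genes of a strand share a precursor while their mature levels depend on processing and decay. Its proteins are core subunits of respiratory complexes I, III and IV and of the ATP synthase (complex V), and its rRNAs are the RNA of the mitochondrial ribosome. In hepatocytes, which are rich in mitochondria, these complexes drive the oxidation of fatty acids and the supply of ATP for glucose production.

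Of the 13 protein-coding genes, 7 held nearly every read and 6 held almost none. mt-Co2, mt-Atp8, mt-Atp6, mt-Co3, mt-Nd3 and mt-Nd4l had at most 3 counts in any library and 10 counts in all 6 libraries together, while each of the 7 others had between 5503 and 341123 counts per library. mt-Co2 (a core subunit of complex IV, cytochrome c oxidase) had 3 counts in sham replicate 2, 1 in sham replicate 3 and 0 elsewhere. mt-Atp6 (the subunit of ATP synthase that forms part of the proton channel) had 2 counts in sham replicate 2 and 1 in VSG replicate 6. mt-Co3 (complex IV), mt-Nd4l (complex I) and mt-Atp8 (complex V) had 1 count each in a single library, and mt-Nd3 (complex I) had 0 in all 6. Libraries held 22804397 to 24191778 counts, so 3 counts, the limit that a count of 0 allows, were 0.124 to 0.132 CPM (counts scaled to library size). This limit covers counting error only.

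The 6 genes lie next to one another, between mt-Co1 and mt-Nd4. Along this stretch the nuclear genome carries a copy of the mitochondrial genome, annotated as 7 pseudogenes on the minus strand of chr1:24611535-24616197 (mm10). Over their 4137 aligned bases the 7 pseudogenes differed from chrM at 1 base, A1066T in mt-Co1, where positions count from 1 at the start of the gene and the base of mt-Co1 comes first. This base lies next to the edge of the aligned part, and 483 of the 492 bases of that pseudogene, Gm29216, aligned. Whether the base belongs to the copy or to sequence beside it was not tested. The pseudogenes aligned with mt-Co1 from base 1063 to its last base 1545, mt-Co2 from 1 to 681 of 684, mt-Atp6 from 1 to 678 of 681, mt-Co3 from 1 to 783 of 784, mt-Nd3 from 4 to 345 of 348, mt-Nd4l from 1 to 294 of 297, and mt-Nd4 from 1 to 876 of 1378. The distance between the aligned parts of neighbouring pseudogenes equalled that between the same parts of the chrM genes for 5 of 6 pairs. One of these distances, 233 bases between the copies of mt-Co2 and mt-Atp6, spans the place of most of mt-Atp8, for which no pseudogene of its own was annotated. The 3′ end of mt-Atp8 overlaps the start of mt-Atp6 and so lies inside the copy of mt-Atp6.

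Stretches of 3 chrM genes show where the aligned part of the annotated pseudogenes starts, what it covers and where it ends. They are from the GENCODE M21 transcripts (mm10, plus strand), written 5′ to 3′, with the bases that align to the chromosome 1 pseudogene of the named gene in capitals. The first runs across the start of the aligned part inside mt-Co1 (chrM:6360-6419), and the second is the whole of mt-Nd4l (chrM:9877-10173). The last runs across the end of the annotated pseudogene inside mt-Nd4 (chrM:11013-11072). Where the nuclear copy itself starts and ends was not determined. 
mt-Co1: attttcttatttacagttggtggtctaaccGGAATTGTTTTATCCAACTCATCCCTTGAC
mt-Nd4l: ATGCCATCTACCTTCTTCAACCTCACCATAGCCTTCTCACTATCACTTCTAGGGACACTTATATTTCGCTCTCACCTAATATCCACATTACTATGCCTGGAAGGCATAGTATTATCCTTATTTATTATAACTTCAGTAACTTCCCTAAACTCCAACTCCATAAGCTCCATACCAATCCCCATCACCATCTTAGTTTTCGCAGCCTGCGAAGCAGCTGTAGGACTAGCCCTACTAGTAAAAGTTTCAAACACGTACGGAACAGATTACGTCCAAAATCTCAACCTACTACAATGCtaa
mt-Nd4: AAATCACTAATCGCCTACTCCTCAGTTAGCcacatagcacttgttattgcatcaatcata
In mt-Nd4l only the last 3 bases lie outside its own pseudogene Gm10222, and there mt-Nd4l overlaps the start of mt-Nd4, so these bases lie inside the neighbouring pseudogene Gm28439. In mt-Co1 and mt-Nd4 the change of case marks the edge of the aligned part of the pseudogene. The capitals of mt-Co1 include base 1066, which differs in the pseudogene.

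The share of each gene that also occurs in nuclear transcripts separated the uncounted genes from the counted ones, with mt-Atp8 as the exception. Every run of 50 bases of the 13 genes and both rRNAs was looked up in the nuclear transcripts of the annotation. Of these runs, 100% were shared for mt-Co2, 99.5% for mt-Atp6, 99.9% for mt-Co3, 98.0% for mt-Nd3 and 98.8% for mt-Nd4l. Among the counted genes the share was 62.2% for mt-Nd4, 51.1% for mt-Co1, 8.19% for mt-Nd2 and 7.61% for mt-Nd5, and it was 0 for mt-Nd1, mt-Nd6 and mt-Cytb. mt-Atp8 also had 0 shared runs, its overlap with mt-Atp6 being shorter than a run, and only annotated transcripts were searched. Whether reads with several matching places were left out of the deposited counts was not stated, and the part of the shared sequence in the near absence of counts was not tested.

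The nuclear copies were counted little as well. The 7 pseudogenes on chromosome 1 held 433 counts over all 6 libraries and at most 32 in a library, the highest being Gm28439, the copy of mt-Nd4, in sham replicate 2. These 7 are named because they lie at this locus. Outside it, 3 other copies averaged at least 1 CPM, here scaled with TMM factors. Gm13340, a copy of mt-Co1 on chromosome 2, had 4.29 ± 0.719 CPM in the sham group and 3.37 ± 0.0978 after VSG. Gm13341, a copy of mt-Co2 beside it, had 3.47 ± 0.792 and 2.68 ± 0.575 CPM. Gm11407, a copy of mt-Nd5 on chromosome 4, had 1.34 ± 0.673 and 1.14 ± 0.873 CPM (SD, n = 3 per group for each). Of 14 pseudogene copies, 9 passed the filter on low counts and none passed the test between groups (edgeR quasi-likelihood test, Benjamini-Hochberg adjustment, 0.05), which 14.7% of all genes tested passed.

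**Figure D1:**
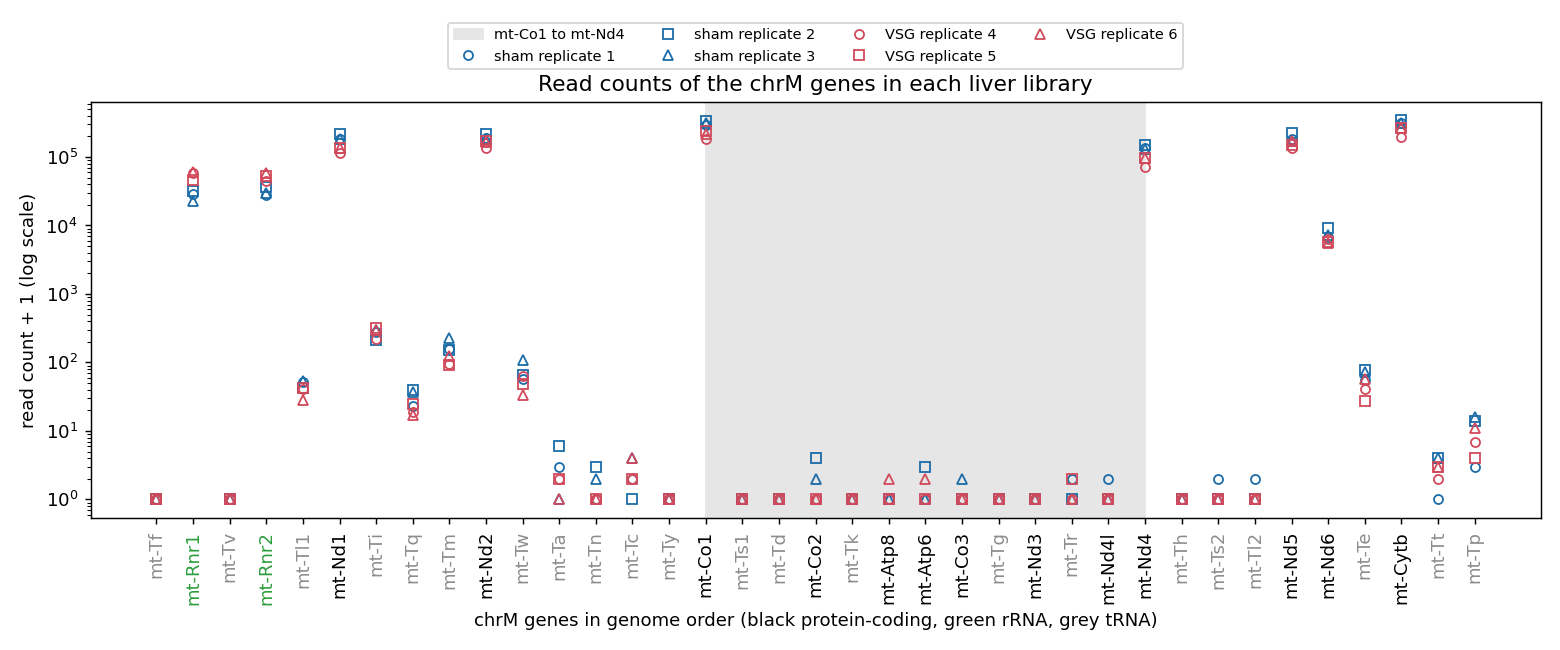
Read counts plus 1 (log axis) of the 37 chrM genes in genome order, each point 1 library, sham in blue and VSG in red. The grey band runs from mt-Co1 to mt-Nd4, and inside it no gene has more than 3 counts in a library, while the protein-coding genes outside it and at its edges have at least 5503.

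Per unit of length, mt-Cytb (cytochrome b, the only chrM subunit of complex III) had the highest level of the 7 counted mRNAs. Its FPKM (CPM of the total counts divided by exon length in kilobases) averaged 10420 over the 6 libraries and was above that of every other chrM gene in 6 of 6. mt-Co1 (the catalytic subunit of complex IV, 7248 FPKM), mt-Nd2 (7228) and mt-Nd1 (7151) followed, and their order was not stable. mt-Co1 was above mt-Nd2 in the 3 sham libraries and below it in the 3 VSG libraries, and mt-Nd2 was above mt-Nd1 in the 3 VSG libraries and in 0 of the sham libraries. mt-Nd5 (3994 FPKM) was above mt-Nd4 (3489 FPKM) in 5 of 6 libraries. mt-Nd6, the only protein-coding gene of the minus strand, was lowest of the 7 counted genes at 553 FPKM.

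This order depended on what was taken as the length of a gene. When counts were divided by the number of 50-base runs not found in nuclear transcripts, in place of the exon length, mt-Co1 had the highest level in 6 of 6 libraries, with 15320 CPM per 1000 such runs, against 10880 for mt-Cytb. On this scale mt-Nd4 moved up to 9577, above mt-Nd2 (8262) in 5 of 6 libraries and above the 4442 of mt-Nd5. The scale depended on the length of a run. With 50 bases, 731 runs of mt-Co1 and 1095 of mt-Cytb were not shared, and with 100 bases 1000 and 1045. Levels were not computed for runs of 100 bases, so the first place of mt-Co1 holds for runs of 50 bases only. Averaged over the 6 libraries, the rRNA genes were below the counted mRNAs other than mt-Nd6 on the FPKM scale, with 1855 for mt-Rnr1 and 1119 for mt-Rnr2, in libraries made from poly(A) RNA. In VSG replicate 4, mt-Rnr1 (2696 FPKM) was above mt-Nd4 (2310 FPKM).

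After VSG, both rRNAs were higher and the 7 counted mRNAs were lower on average than after the sham operation, but only the 12S rRNA mt-Rnr1 passed the test. In all, 16 of the 37 chrM genes passed the filter on low counts, namely 7 protein-coding, 2 rRNA and 7 tRNA genes. Of these, 1 was called at an adjusted p of 0.05, while 14.7% of the 14454 genes tested were called, 6.79% as higher and 7.87% as lower after VSG. A bulk measurement of this kind cannot tell fewer cells of a type from less RNA per cell.

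mt-Rnr1, at chrM:70-1024 on the plus strand, encodes the RNA of the small subunit of the mitochondrial ribosome. Its level, in CPM scaled with TMM factors, as all CPM from here on unless total counts are named, was 1051, 1432 and 852 in sham replicates 1 to 3 and 2654, 1992 and 2915 in VSG replicates 4 to 6. The lowest VSG liver stood above the highest sham liver. The means were 1112 ± 295 and 2520 ± 476 CPM (SD, n = 3 each), a 2.27-fold rise with a log2 fold change of 1.18 (SE 0.27, 95% interval 0.55 to 1.82, adjusted p = 0.0336, edgeR). Leaving out 1 liver lost the call in 4 cases. The adjusted p became 0.0890 when sham replicate 1 was dropped and 0.138 when sham replicate 3 was. It became 0.0710 with VSG replicate 4 dropped and 0.115 with VSG replicate 6 dropped, and the log2 fold change was at least 1.01 in each case.

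mt-Rnr2, at chrM:1094-2675, encodes the 16S rRNA of the large subunit. Its level was 1025, 1659 and 1135 CPM in the sham livers and 2022, 2224 and 2784 CPM in the VSG livers. The groups did not overlap, which held for 39.7% of all genes tested on this scale. The log2 fold change was 0.88 (SE 0.25, 95% interval 0.27 to 1.49), with an unadjusted p of 0.0111 and an adjusted p of 0.0630 in edgeR, so this gene did not pass. It passed in 2 of 14 alternatives, when libraries were scaled by total counts (adjusted p = 0.0384) and in DESeq2 (0.00462). With 1 liver left out it never passed, at an adjusted p of 0.0564 to 0.218 in edgeR. mt-Rnr1 counts per 1000 mt-Rnr2 counts were 880 ± 138 in sham and 1085 ± 211 in VSG livers (SD, n = 3 each), and these values overlapped.

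**Figure D2:**
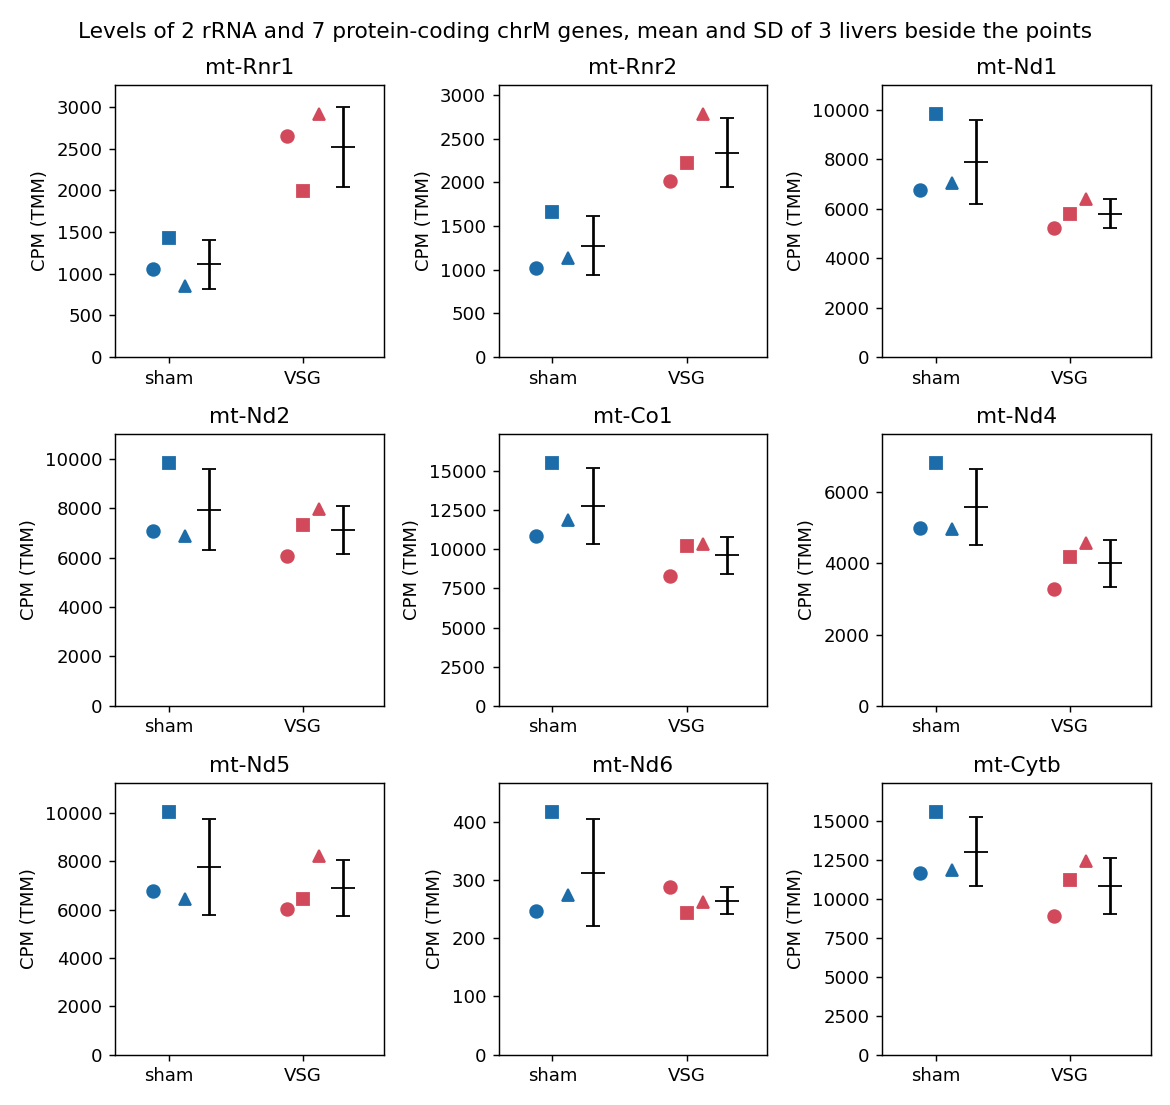
CPM with TMM factors (y axis from 0) of 2 rRNA and 7 protein-coding chrM genes in each liver, with the mean and SD of each group beside its points (n = 3). The VSG livers lie above the sham livers for mt-Rnr1 and mt-Rnr2 and below them for mt-Nd1, mt-Co1 and mt-Nd4, and the groups overlap in the other 4 panels.

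Complex I, the NADH dehydrogenase that takes up electrons from NADH, contributed 5 of the counted mRNAs, mt-Nd1, mt-Nd2, mt-Nd4, mt-Nd5 and mt-Nd6. mt-Nd1, at chrM:2751-3707, had 6776, 9828 and 7025 CPM in the sham livers and 5238, 5768 and 6391 CPM in the VSG livers. mt-Nd4, at chrM:10167-11544, had 4979, 6820 and 4958 CPM against 3281, 4180 and 4560 CPM. For both genes every VSG liver was below every sham liver, yet neither passed the test. The log2 fold change was -0.44 for mt-Nd1 (SE 0.27, 95% interval -1.09 to 0.20, adjusted p = 0.288). For mt-Nd4 it was -0.48 (SE 0.26, 95% interval -1.10 to 0.14, adjusted p = 0.240).

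The other complex I genes overlapped between the groups. mt-Nd2, at chrM:3914-4951, had 7088, 9833 and 6887 CPM in the sham livers and 6056, 7307 and 7969 CPM in the VSG livers, with a log2 fold change of -0.16 (SE 0.28, adjusted p = 0.714). mt-Nd5, at chrM:11742-13565, had 6788, 10050 and 6433 CPM against 6021, 6460 and 8206 CPM, with a log2 fold change of -0.17 (SE 0.30, adjusted p = 0.713). Sham replicate 2 was the highest of the 6 livers for both. mt-Nd6, on the minus strand at chrM:13552-14070, had 246, 417 and 274 CPM in the sham livers and 288, 243 and 262 CPM in the VSG livers, with a log2 fold change of -0.24 (SE 0.22, adjusted p = 0.460). Its 3′ end overlaps that of mt-Nd5, and the strand setting of the counting was not stated. Without sham replicate 2, the log2 fold changes of mt-Nd2, mt-Nd5 and mt-Nd6 were 0.02, 0.06 and 0.02.

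mt-Cytb of complex III, at chrM:14145-15288, had 11670, 15570 and 11820 CPM in the sham livers and 8856, 11180 and 12410 CPM in the VSG livers. The groups overlapped, with a log2 fold change of -0.27 (SE 0.30, 95% interval -0.99 to 0.46, adjusted p = 0.562). mt-Co1 of complex IV, at chrM:5328-6872, had 10860, 15510 and 11880 CPM against 8261, 10230 and 10320 CPM. Here the groups did not overlap, but the log2 fold change of -0.41 (SE 0.30, 95% interval -1.12 to 0.30, adjusted p = 0.363) did not pass. No counted gene stood for complex V, since mt-Atp6 and mt-Atp8 were both among the 6 uncounted genes.

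All 7 counted mRNAs had a negative log2 fold change, with a median of -0.27 beside 0.03 over all genes tested, and 3 of 7 did not overlap between groups, close to the 39.7% of all genes tested that did not. None was called by edgeR or DESeq2, and none had an unadjusted p under 0.05 in edgeR. Sham replicate 2 was the highest library for each of the 7. Without it, the log2 fold change was -0.25 for mt-Nd1, -0.31 for mt-Nd4, -0.25 for mt-Co1 and -0.12 for mt-Cytb. Scaling mattered for how separate the groups looked. In CPM of the total counts, without TMM factors, 6 of 7 did not overlap (35.3% of all genes tested), all but mt-Nd5, and still none was called. That scaling lowered the median log2 fold change of all genes tested by 0.14, and it gave 486 higher and 1513 lower calls among all genes, against 981 and 1137 with TMM.

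**Figure D3:**
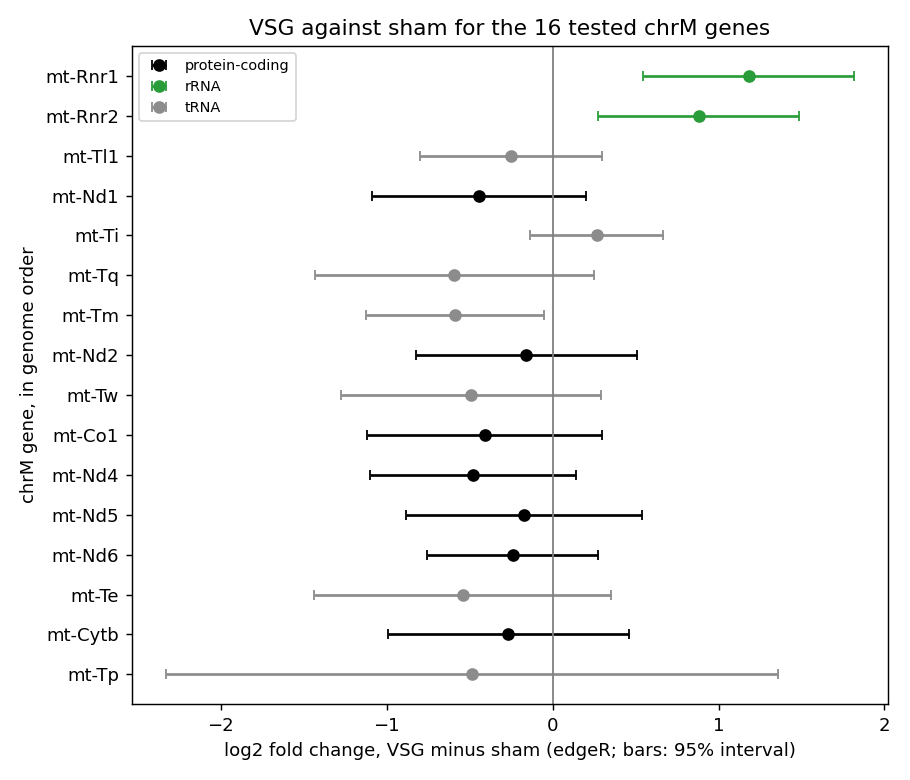
Log2 fold change of VSG over sham (x axis) with its 95% interval from edgeR for the 16 tested chrM genes in genome order, coloured by kind. The intervals of mt-Rnr1 and mt-Rnr2 lie above 0, that of mt-Tm lies below 0 and the others include 0, and after adjustment over all genes only mt-Rnr1 was called.

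Seen as shares of the library, the mRNAs and rRNAs of chrM went in opposite directions. All chrM genes together took 5.79%, 6.58% and 5.59% of the counts in the sham livers and 4.14%, 4.94% and 5.01% in the VSG livers. The protein-coding genes took 5.55%, 6.29% and 5.37% against 3.69%, 4.52% and 4.50%. The rRNAs took 0.238%, 0.286% and 0.216% against 0.454%, 0.420% and 0.511%. None of these 3 shares of the total counts overlapped between the groups, on a scale where 35.3% of all genes tested did not. With TMM factors, the protein-coding sum did overlap, at 48410, 68030 and 49280 CPM in the sham livers and 38000, 45370 and 50120 CPM in the VSG livers, while the rRNA sum did not. No p is given for such sums.

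The ratio of rRNA to mRNA within chrM needs no scaling by nuclear genes. There were 42.9, 45.5 and 40.3 rRNA counts per 1000 protein-coding chrM counts in the sham livers and 123, 92.9 and 114 in the VSG livers. The groups did not overlap, which held for 35.9% of all genes tested when divided by the same total. The spread within a group was small beside the gap between groups, with means of 42.9 ± 2.57 and 110 ± 15.4 (SD, n = 3 each), a ratio of 2.56. The ratio was 2.86 for mt-Rnr1 alone and 2.30 for mt-Rnr2 alone. This difference was 60.4 to 75.5 with any single liver left out, beside 67.0 with all 6.

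In poly(A) libraries the level of an rRNA also depends on how it was captured. Small nuclear and nucleolar RNA genes, which mostly lack a poly(A) tail and were added as a list after the rRNA values were seen, summed to 18.3 to 21.5 CPM in the sham livers and 25.0 to 27.4 CPM in the VSG livers. These ranges did not overlap. Of these 2941 genes, 2556 had no count, 6 were tested and none was called, where 14.7% of all genes tested were. All 6 had a positive log2 fold change (median 0.11), as had 7569 of the 14454 genes tested. Nuclear-encoded rRNA genes summed to 4.35 to 8.63 and 4.57 to 10.6 CPM, which overlapped, and none of the 3 tested was called. Rn7sk and similar RNAs, 7 genes of which 6 had no count, summed to 0.190 to 0.776 CPM in the sham and 0.171 to 0.381 CPM in the VSG livers. The part of unpolyadenylated RNA in the rRNA difference was not tested.

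Markers of other cells also differed between the groups. All 9 neutrophil markers were higher after VSG, where 6.79% of all genes tested were, with a sum of 2.74 to 14.7 CPM in the sham livers and 150 to 1830 CPM in the VSG livers. Of 6 Kupffer cell and macrophage markers, 3 were higher, against the same 6.79% (sum of the 6, 272 to 598 and 601 to 1825 CPM). Of 4 cholangiocyte markers 1 was higher (Sox9), while Krt19, Krt7 and Epcam had negative log2 fold changes and were not called (median of the 4 -0.80). None of 5 endothelial, 6 stellate and fibroblast, 5 T and B cell and 4 erythroid markers was called. Their median log2 fold changes were 0.11, -0.83, 0.30 and 0.57, and none of the 6 stellate and fibroblast markers had a positive value. The 7 hepatocyte markers, which summed to 65390 to 110000 CPM in the sham and 48460 to 79950 CPM in the VSG livers, included no call. The part of these cells in the chrM values was not tested.

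Within the chrM mRNAs, the mix changed little. mt-Nd2 made up 14.6%, 14.5% and 14.0% of the protein-coding chrM counts in the sham livers and 15.9%, 16.1% and 15.9% in the VSG livers. mt-Nd4 made up 10.3%, 10.0% and 10.1% against 8.63%, 9.21% and 9.10%. mt-Nd1 made up 14.0%, 14.5% and 14.3% against 13.8%, 12.7% and 12.8%. These 3 of 7 shares did not overlap between the groups, mt-Nd2 being larger and mt-Nd1 and mt-Nd4 smaller after VSG. Scaled to the same total, 35.9% of all genes tested did not overlap, so 3 of 7 is close to the background. The shares of mt-Co1 (23.1% ± 0.880 and 21.6% ± 0.987), mt-Cytb (23.7% ± 0.675 and 24.2% ± 0.811), mt-Nd5 (14.0% ± 0.863 and 15.5% ± 1.11) and mt-Nd6 (0.559% ± 0.0525 and 0.606% ± 0.133) overlapped (SD, n = 3 per group).

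**Figure D4:**
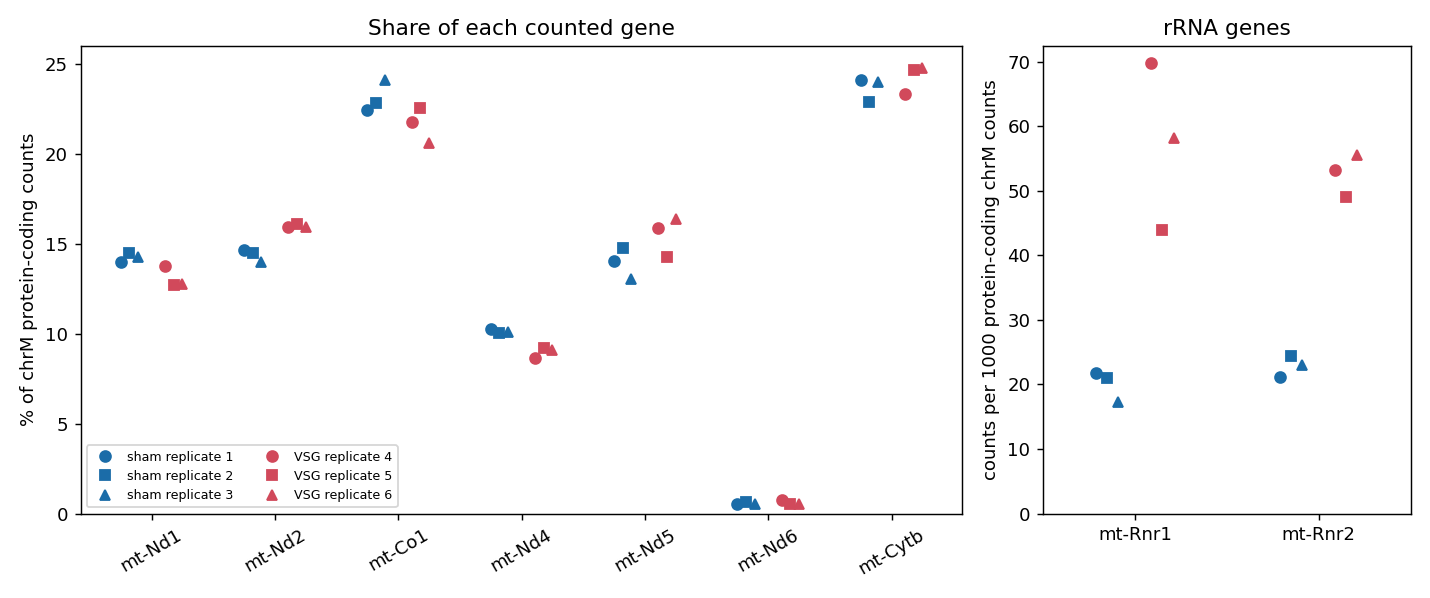
Left, share (%) of each counted gene in the protein-coding chrM counts of each liver, and right, counts of the rRNA genes per 1000 protein-coding chrM counts, sham in blue and VSG in red. Each mRNA share moves by under 2 percentage points between group means, while the VSG livers lie at or above 43.9 for mt-Rnr1 and 49.0 for mt-Rnr2 and the sham livers at or below 21.7 and 24.4.

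The tRNAs held few counts. Together they held 617, 605 and 812 counts in the sham livers and 480, 556 and 562 in the VSG livers. Of the 22, 14 lie on the plus and 8 on the minus strand, 8 had no count in any library and 14 had at most 3 counts in every library. The highest mean levels were those of mt-Ti (isoleucine; 10.3 ± 0.991 CPM in sham and 12.4 ± 2.27 in VSG livers), mt-Tm (methionine; 7.01 ± 1.39 and 4.66 ± 1.01) and mt-Tw (tryptophan; 3.02 ± 0.980 and 2.14 ± 0.620) (SD, n = 3 per group). These 3 lie next to mt-Nd1 and mt-Nd2 on the same strand. Whether their counts came from released tRNAs or from longer precursors was not tested.

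None of the 7 tRNA genes tested was called by edgeR or DESeq2. In 6 the log2 fold change was negative, and mt-Ti had 0.27 (SE 0.17, adjusted p = 0.303). mt-Tm was the only one with an unadjusted p under 0.05 (0.0357), with 5.68, 6.89 and 8.46 CPM in the sham livers and 4.25, 3.93 and 5.81 CPM in the VSG livers. Its log2 fold change was -0.59 (SE 0.23, 95% interval -1.13 to -0.05, adjusted p = 0.121), and only limma on log2(FPKM + 1) called it (adjusted p = 0.0480). Relative to 1000 protein-coding chrM counts, tRNA counts were 0.501 ± 0.113 in sham and 0.543 ± 0.0250 in VSG livers (SD, n = 3 each), which overlapped.

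Of 25 tested nuclear genes that transcribe and maintain chrM, 1 fell and 0 rose, against 7.87% lower and 6.79% higher among all genes tested, and the median log2 fold change was 0.05. The mitochondrial RNA polymerase Polrmt had 14.3 ± 0.873 CPM in sham and 14.99 ± 1.51 in VSG livers (SD, n = 3 each; log2 fold change 0.07, SE 0.12, adjusted p = 0.697). Tfam, which packages mitochondrial DNA and starts its transcription, had a log2 fold change of -0.27 (SE 0.13, adjusted p = 0.196). The elongation factor Tefm (-0.07, adjusted p = 0.725) and Mterf3 (0.14, adjusted p = 0.592) were not called either. The gene that fell was Lonp1, the matrix protease that degrades Tfam among other proteins, at 144 ± 2.12 and 94.4 ± 11.1 CPM (log2 fold change -0.61, SE 0.11, adjusted p = 0.0218).

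Genes of mitochondrial RNA processing, stability and decay gave 2 lower calls and 0 higher among 38 tested (5.26% lower, against 7.87% of all genes tested), with a median of -0.11. Lrpprc and Slirp, whose complex stabilises chrM mRNAs, were not called, the first with a log2 fold change of -0.06 (SE 0.15, adjusted p = 0.798) and the second with -0.17 (SE 0.11, adjusted p = 0.316). The calls were Rexo2 (-0.55, SE 0.10, adjusted p = 0.0219), an exonuclease that clears short RNA fragments, and Trub2 (-0.50, SE 0.12, adjusted p = 0.0356), a pseudouridine synthase acting on mitochondrial mRNA.

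The proteins of the mitochondrial ribosome, which assemble on mt-Rnr1 and mt-Rnr2, gave no higher call. Of 82 tested, 10 fell (12.2%, against 7.87% of all genes tested) and the median log2 fold change was -0.27. The genes with the lowest adjusted p were Mrps18a (-0.73, adjusted p = 0.0103), Mrpl10 (-0.50, adjusted p = 0.0200), Mrpl42 (-0.45, adjusted p = 0.0224) and Mrps36 (-1.91, adjusted p = 0.0265). Mrps36, whose product is now assigned to the oxoglutarate dehydrogenase complex, was close to the floor, at a mean of 0.634 CPM in the sham livers and 0.165 in the others. It passed the filter on low counts through its sham counts. With at least 10 counts required in every library, the list gave 9 calls in place of 10.

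Regulators of mitochondrial biogenesis differed in direction, with 5 of 16 higher and 1 lower (37.5% called, against 14.7% of all genes tested) and a median of 0.13. Ppargc1a (PGC-1 alpha), the coactivator of the programme, had 17.0, 24.7 and 20.9 CPM in the sham livers and 9.81, 12.8 and 13.7 CPM after VSG, a fall of -0.79 on the log2 scale (SE 0.19, adjusted p = 0.0371). The transcription factor Nrf1 rose from 8.74 ± 0.497 to 12.4 ± 0.693 CPM (SD, n = 3 each; 0.50, SE 0.11, adjusted p = 0.0344). The lowest adjusted p were those of Gabpb2 (0.55, adjusted p = 0.0163), Pprc1 (0.52, adjusted p = 0.0170), Sirt1 (0.81, adjusted p = 0.0217) and Creb1 (0.48, adjusted p = 0.0269), which also rose. Gabpa (0.08, adjusted p = 0.694) and the nuclear receptor Esrra (-0.41, adjusted p = 0.164) were not called.

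The nuclear-encoded partners of the chrM proteins had a median log2 fold change of -0.50 over 76 tested subunits of complexes I, III, IV and V, of which 29 fell (38.2%, against 7.87% of all genes tested) and 0 rose. For complex I it was 13 of 38 (median -0.49), and Ndufa10, Ndufa1, Ndufa11 and Ndufa13 were among them. For complex III it was 5 of 9 (-0.58), for complex IV 7 of 12 (-0.61) and for complex V 4 of 17 (-0.43). The lowest adjusted p in the whole list were those of Cox7a1 (-2.79, adjusted p = 0.0165, mean CPM 1.07 for sham, 0.148 for VSG), Cox6b1 (-0.71, adjusted p = 0.0176), Cox5b (-0.71, adjusted p = 0.0178) and Ndufa10 (-0.80, adjusted p = 0.0186). Cox7a1 was close to the floor after VSG and passed the filter on low counts through its sham counts. With at least 10 counts required in every library, the list gave 28 calls in place of 29. Complex II, which has no chrM subunit, had 3 of 4 lower, namely Sdha, Sdhb and Sdhc, with a median of -0.69. The difference between the chrM subunits and the nuclear subunits was not tested.

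Genes of mitochondrial mass, import and the outer membrane gave 8 lower calls and 0 higher among 25 tested (32.0% lower, against 7.87% of all genes tested), with a median of -0.32. Mfn2, which fuses mitochondria, had the lowest adjusted p (-1.13, SE 0.15, adjusted p = 0.0105), followed by citrate synthase Cs (-0.71, SE 0.10, adjusted p = 0.0111), the ADP/ATP carrier Slc25a5 (-0.93, adjusted p = 0.0202) and Immt of the inner membrane organising system (-0.66, adjusted p = 0.0280). The number of list calls varied with the liver left out. Without sham replicate 3 or VSG replicate 6 there were 0 calls in each of the 6 lists, and 159 and 210 over all genes, in place of 2118. Without sham replicate 2 the nuclear subunits gave 2 calls, the ribosome 1, the biogenesis regulators 0, RNA processing 0 and the mass list 2, with 797 over all genes. Without VSG replicate 4 these numbers were 5, 2, 3, 1 and 3, with 1076 over all genes. Without sham replicate 1 they were 32, 5, 4, 2 and 6, with 1214 over all genes, and without VSG replicate 5 they were 41, 13, 7, 1 and 9, with 2732 over all genes. For transcription and DNA maintenance there were 3 calls without VSG replicate 5 and 0 without any other liver.

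**Figure D5:**
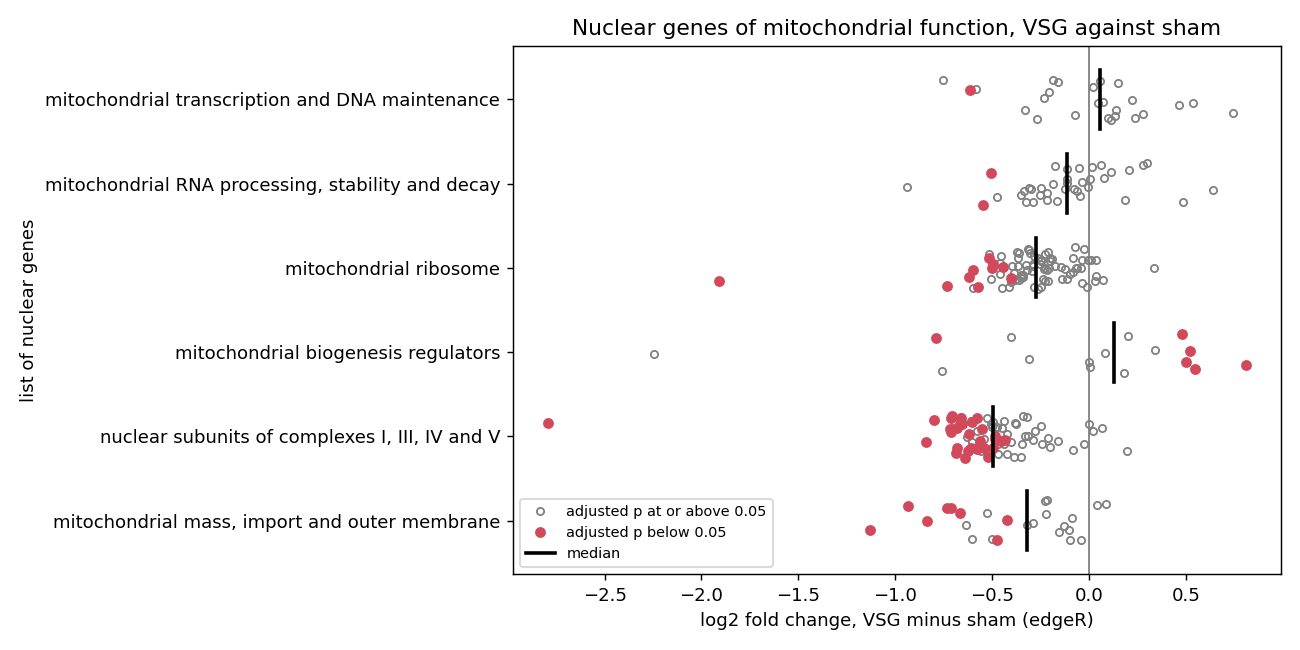
Log2 fold change of VSG over sham (x axis, edgeR) for each tested gene of 6 lists of nuclear genes, red where the adjusted p is below 0.05, with the median of each list as a black bar and the vertical spread of points within a list only for legibility. The medians run from 0.13 for the biogenesis regulators to -0.50 for the nuclear subunits.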

How the data were processed

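The authors prepared strand-specific libraries from poly(A) RNA of 3 sham and 3 VSG livers, checked reads with FastQC 0.10.1, aligned them to mm10 with STAR 2.6.0 and counted them with featureCounts (2.0.3 in the submitters' processing notes). The strand setting and the handling of reads with several matches or over overlapping genes were not stated. The deposited values were raw counts per gene, with the exon length of each gene in bases. The test was the quasi-likelihood test of edgeR 4.0.16, run in R 4.3.3 (filterByExpr with minimum count 10 and total 15, TMM factors 0.897 to 1.14, glmQLFit and glmQLFTest with group as the only term). Adjustment was by Benjamini-Hochberg across the 14454 genes that entered it, and an adjusted p given without a tool is from this fit. Intervals use the t quantile at the fit's degrees of freedom. The procedure was tested on simulated data.

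FPKM was computed from counts, exon lengths and total counts. Runs of 50 bases of chrM genes, and of 100 as an alternative, were looked up in 141730 nuclear transcripts of GENCODE M21. No genome sequence was used. The alternatives were total-count and median-ratio scaling, scaling by nuclear genes, other filters, DESeq2 1.42.0, limma 3.58.1 (voom, and log2(FPKM + 1)) and each liver left out. CPM of the total counts, the lists of unpolyadenylated RNA and the length without shared runs were added after the data were seen.

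The chrM genes and all lists were chosen with earlier results of these data known. Named were all protein-coding and rRNA genes of chrM, called tRNA genes and the 3 tRNA genes of highest mean CPM, up to 4 called genes of lowest adjusted p per list, a fixed set (Polrmt, Tfam, Tefm, Lrpprc, Slirp, Mterf3, Ppargc1a, Nrf1, Gabpa, Esrra) and pseudogene copies with a mean of at least 1 CPM. mt-Tm, the pseudogenes on chromosome 1 and the uncalled cholangiocyte markers were also described for their values or place. In the processing list 38 of 41 names were found and in the mass list 25 of 26, some names being older and newer symbols of one gene. p-values measure the spread between these livers.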

Additional observations from a re-analysis of the deposited data

How the results depend on the processing

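The tested chrM genes were recomputed under 14 alternatives, except mt-Tp, which dropped out with at least 10 counts required in every library and had 13. No protein-coding chrM gene was called under any of them, and the log2 fold change of mt-Rnr1 ran from 1.01 to 1.40 (adjusted p 9.28e-05 to 0.138) and that of mt-Rnr2 from 0.74 to 1.11. With 1 liver left out, the log2 fold change ran from -0.26 to 0.022 for mt-Nd2, from -0.31 to 0.057 for mt-Nd5 and from -0.39 to 0.020 for mt-Nd6, the values above 0 all being those without sham replicate 2. The number of protein-coding chrM genes whose groups do not overlap was 3 with TMM and 6 in CPM of the total counts. With total counts, 2 rRNA genes were called in place of 1, and the calls were 2 for transcription and DNA maintenance (main value 1), 4 for RNA processing (2), 16 for the ribosome (10), 3 for biogenesis regulators (6) and 49 for nuclear subunits (29). DESeq2 gave 2 rRNA genes, 3 transcription, 4 processing and 45 nuclear subunit genes and 3272 over all genes. limma on log2(FPKM + 1) gave 1 tRNA gene, 4 transcription, 20 ribosome, 2 biogenesis and 53 nuclear subunit genes, and no filter beyond 1 count gave 2 transcription genes. With 1 liver left out, calls ran from 0 to 1 for rRNA, 0 to 3 for transcription, 0 to 2 for processing, 0 to 13 for the ribosome, 0 to 7 for biogenesis, 0 to 41 for nuclear subunits, 0 to 9 for mass and import and 159 to 2732 over all genes. The chrM share differed by -1.48 to -0.988 percentage points with 1 liver left out, beside -1.29 with all. The cause of these changes was not tested. No paired analysis was possible because the groups share no replicate numbers. For the 6 uncounted genes and most tRNAs no fold change can be given, and the cause of their low counts was not tested.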
